A study of Homo sapiens with 3 samples.

Results

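The 37 genes of the human mitochondrial genome were followed in MCF10Ca1h cells, an established human breast cancer cell line of the MCF10 epithelial series. Members were all genes whose symbol starts with MT-, and all 37 were found among the 56632 gene IDs of each deposited table. They comprise 13 protein genes, 2 ribosomal RNA genes and 22 transfer RNA genes. RNA sequencing was done on 3 libraries, 1 per group. NT is the library of untreated cells, whose time in culture is not given. GSK484 is the library of cells given the PADI4 inhibitor GSK484 for 72 h, and CON that of cells given a control compound for 72 h. PADI4 converts protein arginine to citrulline. The labels name the control compound GSK107, the deposited table of that library carries another compound number, and no dose is given. All groups were grown in the same medium with horse serum, and nothing says whether the libraries came from separate cultures. With 1 library per group there was no test, and each interval below covers counting error only.

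The mitochondrial genome is a small circle whose strands are called heavy and light. Long precursor RNAs are transcribed from each strand by the RNA polymerase POLRMT and are cut, mostly at the tRNAs, into mature mRNAs, rRNAs and tRNAs. The mRNAs code for core subunits of respiratory chain complexes I, III and IV and of ATP synthase, which make ATP by oxidative phosphorylation, while the remaining subunits are nuclear-encoded. The heavy strand is the template for 12 mRNA, 2 rRNA and 14 tRNA genes. The light strand is the template for MT-ND6 and 8 tRNA genes. In GENCODE release 29 all light-strand genes lie on the minus strand.

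The strands differ in base composition, and so do their RNAs. G made up 35.6% of the MT-ND6 reference transcript and between 6.28% and 16.2% of the other 12 protein transcripts. The first 60 bases of MT-ND6 (GRCh38, chrM:14614-14673, minus strand) and of MT-ND1 (chrM:3307-3366, plus strand) show this, with G in capitals. Sequences here are GENCODE transcripts, found by transcript, and for all 37 genes the length in the deposited tables equals that of the reference transcript.
MT-ND6: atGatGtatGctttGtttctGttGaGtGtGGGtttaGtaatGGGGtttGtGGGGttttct
MT-ND1: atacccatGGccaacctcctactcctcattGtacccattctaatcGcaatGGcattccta

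At 2 places neighbouring protein genes overlap and 1 mature RNA carries both reading frames. MT-ATP8 and MT-ATP6, subunits of ATP synthase, share 46 bases, and MT-ND4L and MT-ND4, subunits of complex I, share 7. Both pairs are shown because the counts of the partners are set against each other below, and because MT-ND4L had the lowest log2 fold of all members for GSK484 against each other library. The last 60 bases of the upstream gene and the first 60 of the downstream gene follow, on the plus strand, with shared bases in capitals. They lie at chrM:8513-8572 and chrM:8527-8586 for the first pair and at chrM:10707-10766 and chrM:10760-10819 for the second (GRCh38).
MT-ATP8 end: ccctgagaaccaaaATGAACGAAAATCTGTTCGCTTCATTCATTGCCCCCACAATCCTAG
MT-ATP6 start: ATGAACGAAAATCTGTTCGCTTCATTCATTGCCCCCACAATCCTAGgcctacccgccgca
MT-ND4L end: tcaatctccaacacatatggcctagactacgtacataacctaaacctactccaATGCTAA
MT-ND4 start: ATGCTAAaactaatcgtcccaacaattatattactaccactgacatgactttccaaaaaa

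Total expected counts, the estimated number of fragments (read pairs), ranged from 70555229 to 92980847 per library. All 8 epithelial markers fixed for the line, among them EPCAM, KRT8, KRT18 and TP63, reached 1 CPM, a count scaled to library size. Of the leukocyte markers PTPRC and CD3E were at 0 in all 3 libraries, and of the fibroblast markers DCN was. Summed leukocyte markers lay between 3.73 and 4.10 CPM, fibroblast markers between 5.99 and 7.63 CPM and endothelial markers between 0.963 and 1.59 CPM. CD68, COL1A1 and CDH5 were the only ones of these to reach 1 CPM. The mean fragment length implied by the deposited effective lengths was 189 bases in NT, 182 in CON and 178 under GSK484.

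Mitochondrial RNA made up a smaller share of the GSK484 library than of the others. Members took 4.78% of all counts in NT (exact binomial interval 4.78% to 4.79%), 5.33% in CON (5.33% to 5.33%) and 4.03% in GSK484 (4.03% to 4.04%). GSK484 was thus lowest and CON highest, with NT between them. The mRNA genes carried nearly all of it, with 4.68%, 5.22% and 3.93% of counts in the same order. The rRNA genes had 0.0992% in NT, 0.115% in CON and 0.105% under GSK484, so that here NT was lowest. Kits for total RNA remove ribosomal RNA, and how far they removed the mitochondrial rRNAs here is not given in the sources used here. In bulk RNA fewer cells of a type and less RNA per cell cannot be told apart, and neither can less mitochondrial RNA and more nuclear RNA.

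MT-CO1, the catalytic subunit of cytochrome oxidase (complex IV), had the most counts of any gene in each of the 3 libraries. Counts were scaled to library size with TMM factors, and on that scale MT-CO1 was at 13076 CPM in NT, 14097 in CON and 10695 under GSK484. Among the 20 genes of highest CPM, 5 were mitochondrial in NT, 6 in CON and 4 under GSK484. MT-ND4, a complex I subunit, was at rank 7 by CPM in NT, 8 in CON and 14 under GSK484. MT-CO2, which carries the copper centre that takes electrons from cytochrome c, was at rank 4 in NT and CON and at rank 7 in GSK484.

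Levels of different genes were compared per length, by the deposited TPM, a transcript abundance that accounts for effective length. MT-CO2 was highest in each library, at 15891 TPM in NT, 16913 in CON and 14134 under GSK484. MT-ND5, the longest of the protein genes, was lowest, at 1189, 1167 and 962 TPM. The range from highest to lowest heavy-strand mRNA was 13.4-fold in NT, 14.5-fold in CON and 14.7-fold in GSK484. MT-CO2, MT-CO3, MT-CO1 and MT-ATP6 held the first 4 places in that order in every library. Below them the order changed between libraries. MT-ND4L lay above MT-ND6 in NT (2913 against 1757 TPM), level with it in CON (2346 against 2360 TPM) and below it in GSK484 (1452 against 1870 TPM). MT-ND3, a small complex I subunit, passed MT-ND4 in GSK484 by a narrow margin (4182 against 4147 TPM), while MT-ND4 was higher in NT and CON (5983 and 6077 TPM against 4459 and 5099). The TPM of MT-ATP8 and MT-ND4L rests on mean effective lengths of 39.2 and 117 bases, so their places among the others depend on the fragment length. The rRNAs lay below all mRNAs, with MT-RNR2, the large subunit rRNA, at 670 to 714 TPM and MT-RNR1, the small subunit rRNA, at 307 to 362 TPM.

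**Figure D1:**
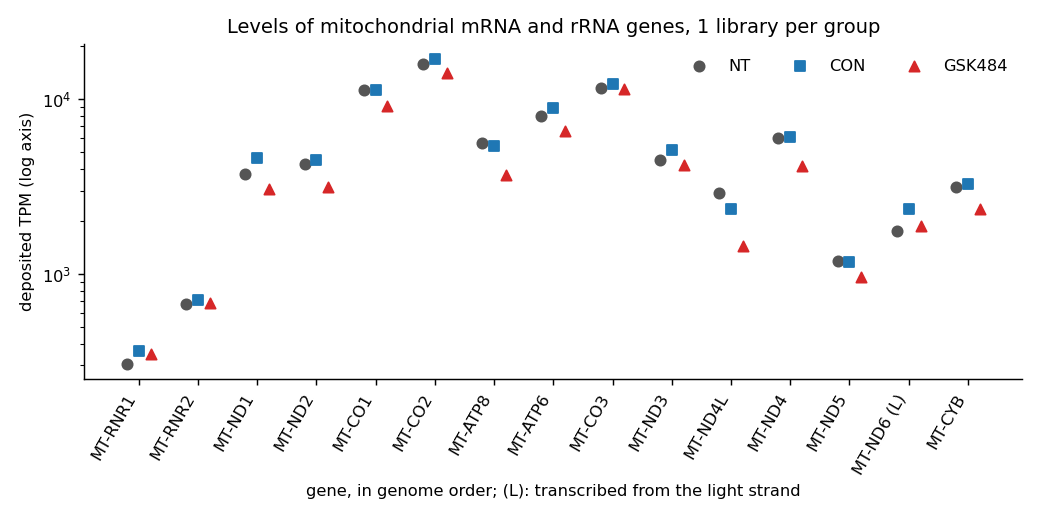
Deposited TPM on a log axis for the 13 protein and 2 rRNA genes in genome order, with 1 point per library (NT grey circles, CON blue squares, GSK484 red triangles). MT-CO2 is highest in all 3 libraries, the rRNAs are lowest, and GSK484 is the lowest point for all protein genes but MT-ND6.

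The libraries of inhibitor and control compound, both taken at 72 h, were compared first. All 13 mRNAs and both rRNAs were lower in GSK484 than in CON by more than counting error, as were 27.4% of all genes, while 26.9% were higher by more than it. Most of those genes have fewer counts than the members, and counting intervals narrow as counts rise, so these shares are not at like depth. The same limit holds for shares beyond counting error given below. The mRNA median was a log2 fold of -0.54, or 1.46-fold lower. The members did not move evenly. Genes were counted as lower or higher where 1 library had at least 25% more than the other, the interval did not span 0 on the log2 scale, and at least 1 CPM was reached. By this rule 12 of the 15 members that reached 1 CPM were lower and 0 higher, where 4.45% of 13199 genes were lower and 9% higher. Both pairs that share a mature RNA are among the 12 genes, which are therefore not 12 separate RNAs. The median log2 fold of all 13199 genes was -0.00, and 1.68% of them lay at or below the mitochondrial mRNA median. Among 129 nuclear genes of at least 1000 CPM in either library, 0 lay at or below it, and the lowest of them was SERPINA3, a secreted protease inhibitor, at a log2 fold of -0.36.

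The complex I subunits encoded in mitochondria had a median log2 fold of -0.64 over 7 genes. MT-ND1, a subunit near the quinone site, was at 2424 CPM in NT, 3289 in CON and 2044 under GSK484. Its level in GSK484 was below both others, and CON was highest, with a log2 fold against CON of -0.69 (interval -0.69 to -0.68). MT-ND2, a subunit of the proton-pumping membrane arm, was at 3106, 3592 and 2309 CPM in the same order (log2 fold -0.64, interval -0.65 to -0.63). MT-ND4, also of the pumping arm, was at 6060, 6722 and 4256 CPM (-0.66, interval -0.67 to -0.65). These 3 genes kept the order CON, NT, GSK484. MT-ND4L, whose RNA also carries MT-ND4, was at 277 CPM in NT, 256 in CON and 150 under GSK484, and it alone of the mRNAs was highest in NT. At a log2 fold of -0.77 (interval -0.80 to -0.73), or 1.70-fold lower, it had the lowest value of all members. Only MT-ND1, MT-ND2, MT-ND4 and MT-ND4L were past 1.5-fold, where 1.26% of all genes were lower by as much, and 0 members were past 2-fold, where 0.273% were.

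The other complex I subunits differed less. MT-ND5, the largest of the pumping subunits, was at 1643 CPM in NT, 1758 in CON and 1344 under GSK484 (log2 fold -0.39, interval -0.40 to -0.38). MT-ND3 was at 604, 781 and 605 CPM, so that GSK484 and NT were level and CON stood above both (-0.37, interval -0.39 to -0.35). MT-ND6, from the light strand, was at 504, 751 and 556 CPM, with NT lowest (-0.43, interval -0.45 to -0.42).

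MT-CYB, cytochrome b and the mitochondrially encoded subunit of complex III, was at 2554 CPM in NT, 2896 in CON and 1937 under GSK484. GSK484 was the lowest, with a log2 fold of -0.58 (interval -0.59 to -0.57). The 3 complex IV subunits had a median log2 fold of -0.36, nearer to 0 than the other complexes. MT-CO1 was at -0.40 and MT-CO2, at 6711, 7864 and 6122 CPM in NT, CON and GSK484, was at -0.36. MT-CO3, a structural subunit of the oxidase core, was at 5859 CPM in NT, 6828 in CON and 5957 under GSK484. Its log2 fold of -0.20 (interval -0.20 to -0.19) was the only one of the mRNAs short of this rule, and its GSK484 level lay just above NT. The ATP synthase subunits were between these groups. MT-ATP6, part of the proton channel, was at 3348, 4123 and 2833 CPM (log2 fold -0.54) and MT-ATP8, a small membrane subunit, at 173, 197 and 132 CPM (log2 fold -0.58, interval -0.61 to -0.54). The rRNAs differed less than the mRNAs. MT-RNR1 was at 200 CPM in NT, 258 in CON and 232 under GSK484 (log2 fold -0.16), and MT-RNR2 at 782, 909 and 806 CPM (log2 fold -0.17).

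With the deposited TPM the mRNA median was -0.44 and 8 of the 12 genes remained counted as lower. The share of all genes meeting the rule was computed with TMM scaling only. Counts under other settings, here and below, therefore have no share beside them. TPM moved the median of all genes by 0.10, and relative to that the mitochondrial median was -0.54. With total counts in place of TMM scaling 11 remained. Once a trend over nuclear genes on GC content and length was removed, the median was -0.40 and 10 remained. MT-CO2 (-0.21) and MT-ND3 (-0.27) were no longer counted. The effective lengths of MT-ATP8, MT-ND4L and MT-ND3 lie below those of the genes used to fit this trend. Their values with the trend removed are therefore extrapolated, among them that of MT-ATP8, which is the median of -0.40.

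**Figure D2:**
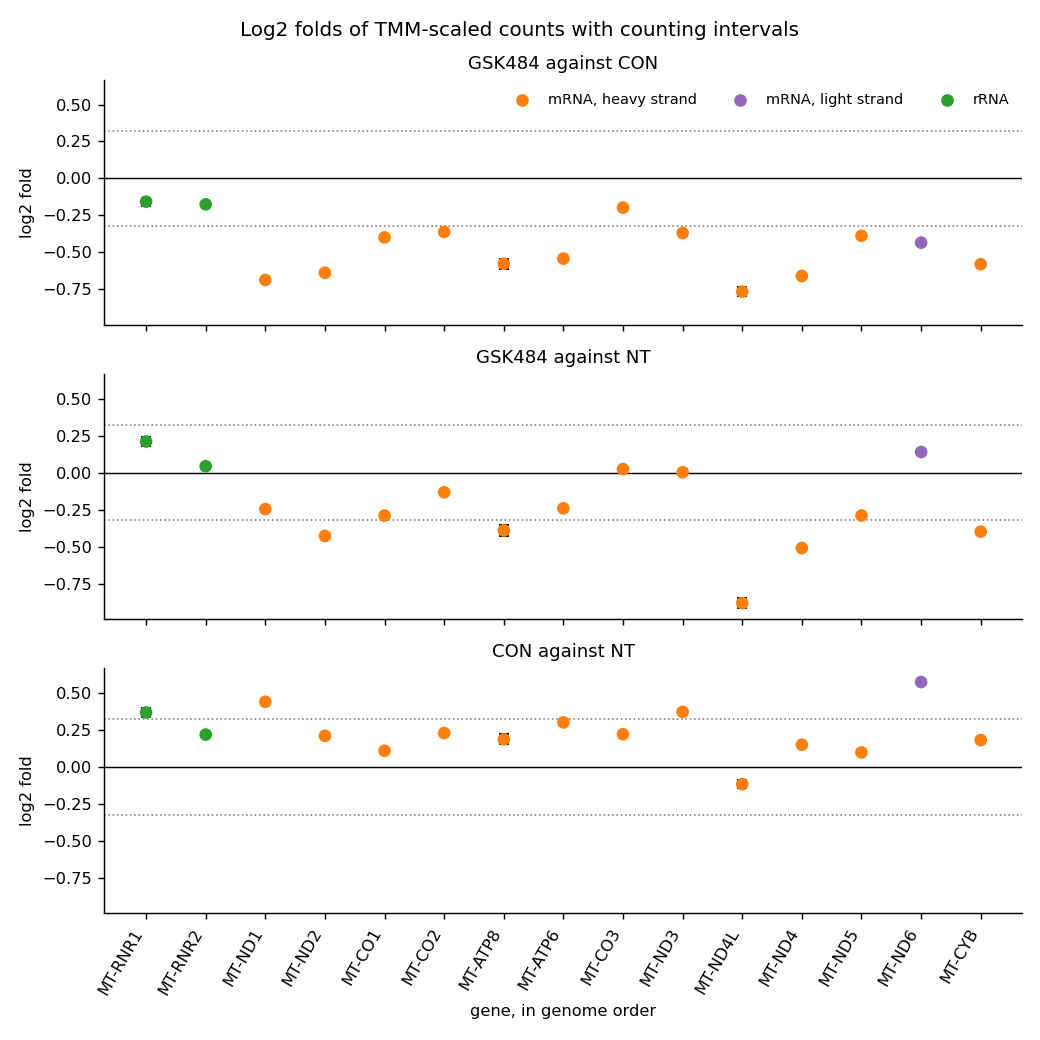
Log2 fold of TMM-scaled counts for the 15 genes above 1 CPM in genome order, 1 panel per comparison, with counting intervals (mostly hidden by the points) and dotted lines where 1 library has 25% more than the other. Heavy-strand mRNAs are orange, MT-ND6 of the light strand purple and rRNAs green. For GSK484 against CON all genes lie below 0, from -0.77 for MT-ND4L to -0.16 for MT-RNR1. For GSK484 against NT the purple point and the rRNAs lie above 0, MT-CO3 (0.02) lies just above it and MT-ND3 is level with it. For CON against NT only MT-ND4L lies below 0.

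Against NT, which shares the GSK484 library with the comparison above, fewer members differed. By the same rule 5 of 15 were lower and 0 higher, where 7.38% of 13209 genes were lower and 5.09% higher. They were MT-ND4L (log2 fold -0.88, interval -0.91 to -0.85, or 1.84-fold lower), MT-ND4 (-0.51), MT-ND2 (-0.43), MT-CYB (-0.40) and MT-ATP8 (-0.39). MT-ND4L and MT-ND4 lie on 1 mature RNA, so these are not 5 separate RNAs. MT-ATP6, on the same RNA as MT-ATP8, was short of the rule at -0.24. The same 5 genes met the rule under each scaling of the libraries, with the TPM and with the trend removed. For MT-ND4L and MT-ATP8 the removed trend is extrapolated to shorter lengths than it was fitted on. At 1.5-fold MT-ND4L alone was lower, where 1.64% of all genes were, and at 2-fold 0 members, where 0.28% were. With the deposited TPM MT-ND4L was at -1.005, past 2-fold, and MT-ATP8 at -0.61, past 1.5-fold. Beyond counting error 10 members were lower and 4 higher, beside 29.5% and 27.3% of all genes. The mRNA median was -0.29, at or below which 9.65% of all genes lay. Short of the rule were MT-CO1 (-0.29), MT-ND5 (-0.29), MT-ND1 (-0.25), MT-ATP6 (-0.24) and MT-CO2 (-0.13). MT-CO3 was at 0.02 (interval 0.02 to 0.03), but at -0.01 with the deposited TPM and -0.02 with the trend removed. For MT-ND3 no difference was detectable at this depth (0.00, interval -0.02 to 0.02), while it was at -0.09 with the deposited TPM and 0.03 with the trend removed. MT-ND6 was on the other side of 0, at 0.14 (interval 0.12 to 0.16), as were MT-RNR1 at 0.21 and MT-RNR2 at 0.04.

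CON against NT compares the control compound with untreated cells, and shares a library with each of the other comparisons. Of the 13 mRNAs, 12 were higher in CON by more than counting error and MT-ND4L was lower (-0.12), where 35.5% of all genes were higher and 29.4% lower. Their median log2 fold was 0.21. By the rule of size 4 of 15 members were higher and 0 lower, where 6.91% of 13221 genes were higher and 14.5% lower. These 4 were MT-ND6 (log2 fold 0.57, interval 0.56 to 0.59), MT-ND1 (0.44), MT-ND3 (0.37) and MT-RNR1 (0.37). At 1.5-fold and at 2-fold 0 members were higher, where 1.75% and 0.333% of all genes were. Only MT-ND6 remained with the deposited TPM (0.43) or the trend removed (0.46), and the mRNA median was then 0.080 or 0.11. With the TPM, which moved the median of all genes by -0.11 here, MT-CO1 (-0.02), MT-ND5 (-0.03) and MT-ATP8 (-0.06) had the opposite sign. With the trend removed, MT-ND4L was counted as lower (-0.34), a value extrapolated beyond the lengths the trend was fitted on. Of all genes 83.0% lay at or below the mitochondrial mRNA median in this comparison, and MT-ND6 and MT-ND1 lay above the 95th percentile of all genes, at 0.39. Of 126 nuclear genes of at least 1000 CPM, 99 lay at or below the mRNA median.

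**Figure D3:**
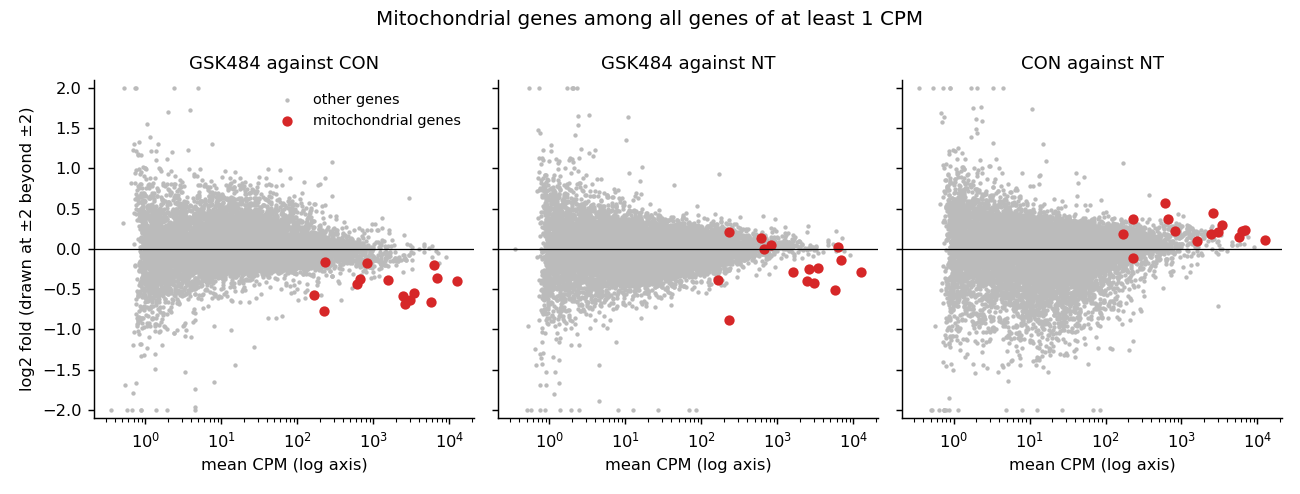
Log2 fold (vertical, drawn at 2 or -2 where larger) against mean CPM (log axis) for all genes of at least 1 CPM (grey) and the 15 mitochondrial genes (red), 1 panel per comparison. For GSK484 against CON most red points lie below the grey points of like abundance, and for CON against NT they lie above 0 apart from MT-ND4L.

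The make-up of the mitochondrial mRNA counts, which does not depend on how libraries are scaled, differed between libraries. MT-CO3 took 12.6% of these counts in NT, 12.8% in CON and 15.3% under GSK484 (exact binomial interval 15.3% to 15.3%). MT-ND4 took 13.1%, 12.6% and 10.9%, and MT-ND2 6.70%, 6.76% and 5.93%. For these 3 genes NT and CON were close and GSK484 stood apart. MT-ND1 had another pattern, at 5.23% in NT, 6.19% in CON and 5.25% under GSK484, with CON apart. MT-ND6, at 1.09%, 1.41% and 1.43%, was lowest in NT. By complex, complex IV mRNAs made up 55.3% in NT, 54.2% in CON and 58.5% under GSK484, and complex I mRNAs 31.5%, 32.3% and 28.9%. The single complex III mRNA had 5.51%, 5.45% and 4.98%, and the ATP synthase mRNAs 7.60%, 8.13% and 7.61%.

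**Figure D4:**
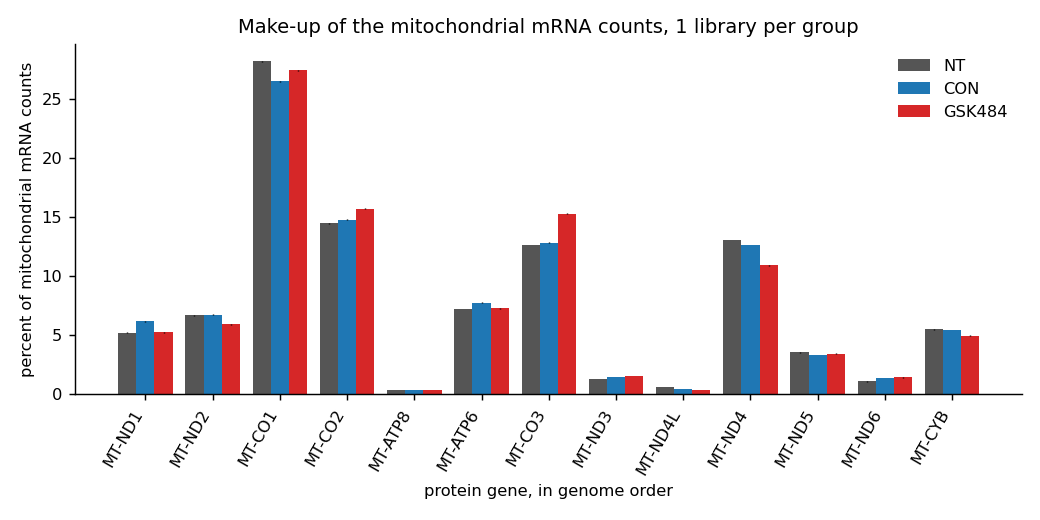
Percent of all mitochondrial mRNA counts taken by each of the 13 protein genes in genome order, as bars per library (NT grey, CON blue, GSK484 red), with exact binomial intervals too narrow to see. MT-CO3 stands at 15.3% in GSK484 against 12.6% and 12.8%, and MT-ND4 at 10.9% against 13.1% and 12.6%.

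In both pairs that share a mature RNA the count of the short upstream gene relative to its partner was lowest in GSK484. The count of MT-ND4L relative to that of MT-ND4 was 0.0457 in NT, 0.0380 in CON and 0.0353 under GSK484. MT-ATP8 relative to MT-ATP6 was 0.0517, 0.0478 and 0.0467. No interval was computed for these ratios. For GSK484 against CON the log2 fold intervals of MT-ATP8 (-0.61 to -0.54) and MT-ATP6 (-0.55 to -0.53) overlapped, so this pair's step from CON to GSK484 is not shown to exceed counting error. Both ratios had the order NT, CON, GSK484, which is also the order of the mean fragment length. By the deposited TPM, which accounts for effective length, the order was the same. MT-ND4L relative to MT-ND4 was then 0.487, 0.386 and 0.350, and MT-ATP8 relative to MT-ATP6 0.706, 0.605 and 0.561. The part of fragment length in the result was not tested. MT-ATP8 and MT-ND4L had counts whole within 0.005 in every library, as is the case where no fragment is divided with another gene. Between the rRNAs, MT-RNR2 had 3.90 times the count of MT-RNR1 in NT, 3.52 in CON and 3.47 under GSK484.

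The strands were next set side by side. Light-strand genes took 1.07% of mitochondrial counts in NT (interval 1.06% to 1.08%), 1.38% in CON (1.37% to 1.39%) and 1.39% in GSK484 (1.38% to 1.40%). The libraries of treated cells, CON and GSK484, were therefore close, and NT was lower. This share is in effect that of MT-ND6, which held all light-strand counts but 7 in NT, 27 in CON and 27 under GSK484. The MT-ND6 values below are therefore not separate from it. The strand setting of the counting is not given in the sources used here, so for MT-ND6 reads from the opposite strand of the same stretch cannot be told apart. Per length, MT-ND6 stood at 34.8% of the median heavy-strand mRNA in NT, 45.0% in CON and 47.7% under GSK484. Set against the heavy-strand mRNA median of the same comparison, the log2 fold of MT-ND6 was 0.13 higher for GSK484 against CON (interval 0.11 to 0.14). The same difference was 0.43 for GSK484 against NT (0.41 to 0.45) and 0.38 for CON against NT (0.36 to 0.39). These intervals hold the counting error of MT-ND6 alone, with the heavy-strand median taken as fixed. MT-ND6 lay above all 12 heavy-strand mRNAs in each comparison with NT, and above 7 of 12 for GSK484 against CON.

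The tRNA genes, which are 59 to 75 bases long beside mean fragments of 178 to 189 bases, were nearly without counts. All 14 heavy-strand tRNA genes had a count of 0 in all 3 libraries, which allows up to 3 counts, or 0.042 CPM in NT, 0.033 in CON and 0.039 under GSK484. The effective length of the tRNA genes is 0 in each library, so this bound is on counts and not on tRNA levels. Of the 8 light-strand tRNA genes, 6 had a count above 0 in some library. MT-TA, the tRNA for alanine, had 4 counts in NT, 8 in CON and 11 under GSK484. MT-TN, for asparagine, had 1, 8 and 4, and MT-TS1, for serine, had 1, 8 and 10. These were the 3 tRNA genes past 3 counts in a library, and NT was lowest in each. MT-TQ had 2 counts in CON, MT-TC 1 in NT and 1 in CON, and MT-TY 2 in GSK484, with 0 in the other libraries. MT-TE and MT-TP were at 0 throughout. Light-strand tRNA counts summed to 7 in NT, 27 in CON and 27 under GSK484, with a log2 fold of 1.53 for CON against NT (interval 0.36 to 3.04) and 1.76 for GSK484 against NT (0.58 to 3.26). For GSK484 against CON no difference was detectable at this depth (0.22, interval -0.60 to 1.05). The transcripts of the 3 genes past 3 counts are shown in full, all on the minus strand of GRCh38, at chrM:5587-5655, chrM:5657-5729 and chrM:7446-7514.
MT-TA: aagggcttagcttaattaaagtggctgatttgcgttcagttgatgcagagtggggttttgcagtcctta
MT-TN: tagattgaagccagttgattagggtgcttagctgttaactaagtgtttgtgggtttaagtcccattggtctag
MT-TS1: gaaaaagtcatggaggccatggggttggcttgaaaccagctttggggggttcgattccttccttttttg

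Copies of mitochondrial genes in nuclear chromosomes are close in sequence and can share reads with the members. Of 388 such genes matched by symbol, 34 had a count above 0 and 8 reached 1 CPM in a library. MTCO1P12, a copy of MT-CO1, was the highest, at 197 CPM in NT, 198 in CON and 145 under GSK484, or 1.5%, 1.41% and 1.35% of the MT-CO1 count. MTCO3P12, MTCO2P12, MTATP6P1, MTND2P28 and MTND1P23 followed, with at most 0.502% of the count of the matching member. The log2 fold of MTCO1P12 for GSK484 against CON was -0.45, that of MTND2P28 -0.58 and that of MTATP6P1 -0.63, beside -0.40, -0.64 and -0.54 for the matching members. MTCO3P12 was at 0.20, where MT-CO3 was at -0.20. Adding all copies to their members left the same 12 genes lower against CON. MT-RNR1, MT-ATP8, MT-ND3, MT-ND4L and MT-CYB, had counts whole within 0.005 in every library.

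Nuclear genes for subunits of the same complexes lay nearer to 0 for GSK484 against CON. Beyond counting error 34 of 37 complex I genes, 8 of 9 complex III genes, 11 of 11 complex IV genes and 15 of 16 ATP synthase genes were lower, beside 27.4% of all genes. By the rule of size, which 4.45% of all genes met as lower and 9% as higher, few were called. Of the 37 nuclear complex I genes 1 was lower and 0 higher, with a median log2 fold of -0.14. Of 9 complex III genes 0 were called, with a median of -0.14. Complex IV had 1 of 11 lower (median -0.21) and ATP synthase 1 of 16 lower (median -0.16). The lowest members were NDUFB4 (-0.44), COX8A (-0.40), ATP5MC3, a proton-carrying ring subunit (-0.33), and UQCRFS1, the Rieske iron-sulfur protein (-0.22). The highest were NDUFA5 (0.11), UQCRC1 (0.01), ATP5PB (-0.03) and COX4I1 (-0.07). With the trend on GC content and length removed the medians were -0.01 for complex I, -0.00 for complex III, -0.13 for complex IV and 0.00 for ATP synthase, while that of the mitochondrial mRNAs was -0.40. Against NT the nuclear medians were on the other side of 0, between 0.05 and 0.07, where the mitochondrial median was -0.29. With the trend removed they were -0.01 for complex I, 0.01 for complex III, 0.06 for complex IV and 0.00 for ATP synthase. For CON against NT they were 0.23 for complex I, 0.21 for complex III, 0.26 for complex IV and 0.20 for ATP synthase, beside the mitochondrial value of 0.21. With the trend removed the complex IV median was 0.17 and the other nuclear medians were 0.00, 0.00 and -0.00, beside 0.11.

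Nuclear genes that make and handle mitochondrial RNA had list medians at or above 0 for GSK484 against CON, and their difference from the mitochondrial mRNAs was not tested. By the rule of size 4.45% of all genes were lower and 9% higher in that comparison. Beyond counting error 27.4% of all genes were lower and 26.9% higher. Of 17 transcription and replication genes 0 were called (median log2 fold 0.02), while beyond counting error 6 were lower and 4 higher. TFB1M, an rRNA methyltransferase, was at -0.16, MGME1, a mitochondrial DNA nuclease, at -0.16, TWNK, the helicase, at 0.15 and PRIMPOL, a primase-polymerase, at 0.29. Of 26 genes for RNA processing, stability and decay 1 was higher and 0 lower (median 0.01), while beyond counting error 7 were lower and 9 higher. The higher one was FASTKD2, an RNA-binding protein of the mitochondrial ribosome's assembly, at 64.3 CPM in NT, 42.9 in CON and 55.4 under GSK484 (0.37, or 0.12 with the trend removed). LRPPRC, which stabilises mitochondrial mRNAs, was at 258 CPM in NT, 190 in CON and 236 under GSK484, with CON lowest (log2 fold 0.32, or 0.19 with the trend removed). TRMT10C, a subunit of mitochondrial RNase P, which cuts tRNAs from the precursor, was at 0.28 (0.16 with the trend removed), and FASTKD5, needed for processing of junctions without a tRNA, at -0.24. Of 7 measured coregulators of mitochondrial genes 1 was higher and 0 lower (median 0.09), while beyond counting error 0 were lower and 3 higher. GABPA, a transcription factor for nuclear respiratory genes, was at 15.2 CPM in NT, 9.09 in CON and 12.9 under GSK484 (0.50, or 0.21 with the trend removed), PPRC1 at 0.10 and YY1 at 0.06. Against NT these 3 lists had 1, 0 and 0 genes lower and 0 higher, with medians of -0.04, -0.05 and -0.01, beside 7.38% of all genes lower and 5.09% higher. For CON against NT they had 2, 5 and 1 lower and 0 higher, with medians of -0.01, -0.05 and -0.06, beside 14.5% of all genes lower and 6.91% higher.

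**Figure D5:**
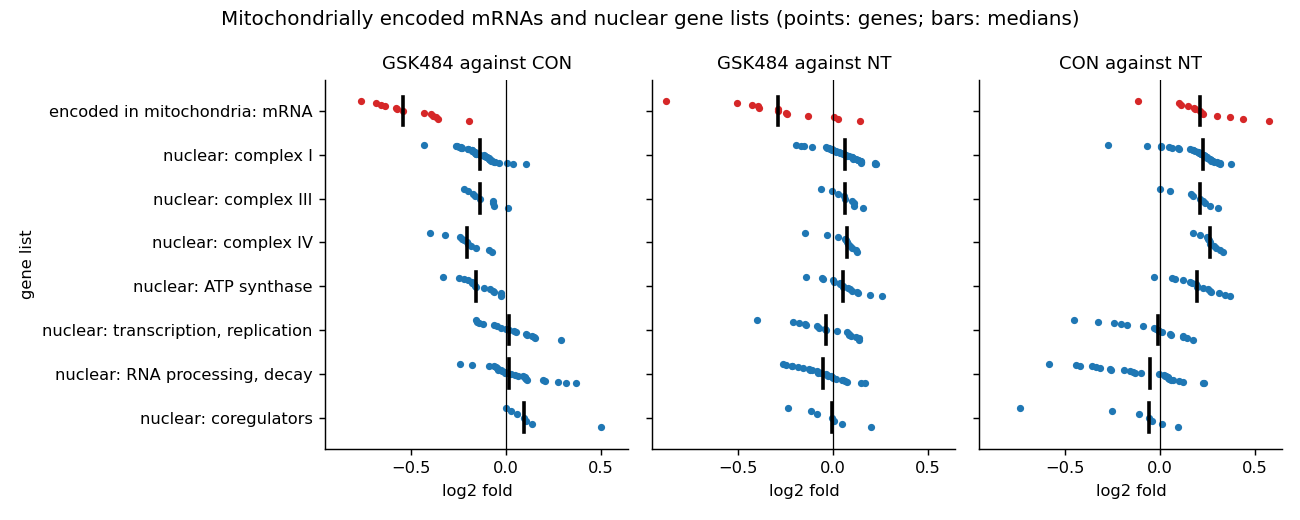
Log2 folds of single genes (points) and list medians (black bars) for the 13 mitochondrially encoded mRNAs (red) and 7 lists of nuclear genes (blue), 1 panel per comparison. The red median of -0.54 lies to the left of all nuclear medians for GSK484 against CON, and at 0.21 among those of the nuclear subunits for CON against NT.

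Over the 12 heavy-strand mRNAs, which share the same 2 libraries in a comparison, Spearman's rho of the log2 fold for GSK484 against CON was 0.12 with GC content, 0.02 with length and 0.03 with place along the genome. For GSK484 against NT the values were 0.29, -0.16 and -0.21. For CON against NT they were 0.10, -0.36 and -0.50. These are descriptions across genes, which come from 1 precursor and are not independent replicates.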

How the data were processed

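RNA was sequenced from 3 libraries of a human cell line, in paired reads of 125 bp from a stranded total RNA kit, per the labels' protocols. The authors deposited expected counts, which are estimated fragments (read pairs) per gene and not normalized, and TPM values, scaled over effective lengths, per the file headers. The deposited FPKM were not used. RSEM and hg19 are named per the submitters' processing notes; the sources used here do not give aligner, annotation, versions or strand setting. Lengths per gene, and effective lengths net of fragment size, come from the same tables, and other values there were not used.

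Symbols were matched by gene ID through a gene name table and GENCODE release 29 (GRCh38), used for names, strand, sequences and GC content, and its coordinates only place the printed sequences. Expected counts were scaled to library size with TMM factors (edgeR 4.0.16 in R 4.3.3; 1.01 in NT, 0.98 in CON and 1.01 in GSK484). Log2 folds used a prior count of 0.5. The 95% intervals are exact conditional binomial (Clopper-Pearson) intervals on rounded counts and cover counting error only. They were run on simulated Poisson counts with known library sizes. That is the model they assume, so it checks the code and not the error in these libraries. PCR copies are not separable from molecules. With 1 library per group no test was run. Alternatives were total counts, DESeq2 size factors, scaling on nuclear genes, the TPM with a pseudocount of 0.01, other filters, fold limits and prior counts, added nuclear copies, and a removed trend of log2 fold with GC content and length. That trend used natural splines over 8857 nuclear protein-coding genes of at least 10 CPM. Genes of short effective length were left out of the fit. For MT-ATP8, MT-ND4L and MT-ND3, which are shorter than those fitted, the trend is extrapolated.

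Members, lists, the rule of size and the alternatives were chosen with earlier results of these data known. All members are named. From the RNA and coregulator lists up to 4 genes furthest from 0 for GSK484 against CON beyond counting error are named, from the subunit lists the lowest and highest, and of the nuclear copies the 6 of highest mean CPM; SERPINA3 was chosen after its value was seen.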

Additional observations from a re-analysis of the deposited data

How the results depend on the processing

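No paired analysis was possible because each group has 1 library and no comparison comes from a test. Among the members above 1 CPM, 0 genes counted as lower or higher changed sign under another scaling, the deposited TPM, a prior count of 2, added nuclear copies or the removed GC and length trend.

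The median log2 fold of the mRNAs for GSK484 against CON was -0.50 with total counts, -0.44 with TPM, -0.40 with the trend removed, -0.58 over the 4 mRNA genes with whole counts and -0.49 over the 10 genes of at least 500 bases, a choice made after seeing the data. For GSK484 against NT it was -0.31 with TPM, -0.39 over genes with whole counts and -0.27 over the longer genes. For CON against NT it was 0.17 with total counts, 0.19 with DESeq2 1.42.0 size factors, 0.080 with TPM, 0.11 with the trend removed and 0.18 over genes with whole counts. MT-ND6 minus the heavy-strand median for GSK484 against NT was 0.40 with TPM.

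For GSK484 against CON 4 members were lower at 1.5-fold, 0 at 2-fold and 4 among the 5 with whole counts. For GSK484 against NT 1 was lower at 1.5-fold, 0 at 2-fold and 3 with whole counts, and without a CPM minimum 1 was higher. For CON against NT 1 was higher with TPM, 1 with the trend removed, 0 at 1.5-fold, 0 at 2-fold and 2 with whole counts, and 1 was lower with the trend removed. Fewer genes or a stricter fold account for the smaller counts by construction. For TPM and the trend the cause was not tested. The share of all genes meeting the rule was not computed with TPM, with the trend removed or without a CPM minimum.

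The share of counts in members was 4.81% in NT, 5.36% in CON and 4.06% under GSK484 with nuclear copies added, and 4.68%, 5.22% and 3.93% without the rRNAs. Over protein-coding genes alone it was 4.01% in GSK484. For the tRNA genes, whose effective length is 0 in each library, a count of 0 allows up to 3.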
